A study of Mus musculus with 12 samples.

Results

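GABA-A receptors are the chloride channels through which GABA, the main inhibitory transmitter of the brain, silences neurons, and each receptor is a ring of subunits encoded by separate genes. The 7 subunit genes described here are *Gabra2*, *Gabra3*, *Gabra4* and *Gabra5* (alpha subunits), *Gabrb1* and *Gabrb2* (beta subunits) and *Gabrd* (the delta subunit). They were found by matching the Ensembl identifiers of the table to gene symbols in GENCODE M21, and all 7 were among its 26409 genes. A further 9 genes of the same family are given as their surroundings.

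RNA was measured by bulk sequencing of dissected hippocampus from 12 mice of both sexes, with 3 WT and 3 *Dek* cKO mice of each sex. DEK is a chromatin protein, and the comparison asks how subunit RNA differs when it is lost. The cKO mice lack exons 3 and 4 of *Dek*, which had been flanked by loxP sites and were deleted with a CMV-Cre transgene from C57Bl/6 mice. Breeding later removed the transgene, and the deletion is now inherited from the parents. This limits the model, since effects of the loss in adult hippocampus cannot be told apart from effects during development or in other cells. WT mice carry intact *Dek*, and the mice sequenced were 6 to 12 months old and had been through behavior assays within the 6 weeks before tissue collection. Library names of the 3 female WT mice begin with C57 and those of the other 9 with CMV, so among females genotype and this prefix cannot be told apart. Values are TPM, a level of transcripts corrected for transcript length and scaled per library, so levels of different genes are comparable only as far as the transcript lengths assigned to them are right. The listed genes sum to between 825750 and 845553 TPM in a library. The methods name 1 planned read depth for all libraries. The study's supplement also shows RNA quality, total reads and percent alignment of the samples, which were not set beside the values here. The counts behind each value cannot be recovered from TPM, so counting error is unknown.

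GABA-A receptors usually join alpha and beta subunits with a gamma or a delta subunit, and GABA binds where alpha meets beta. Receptors with a gamma subunit cluster at synapses and give brief inhibition, whereas those with delta, and many with alpha 5, lie outside synapses and carry a steady current evoked by ambient GABA. In the hippocampus alpha 5 is known from pyramidal neurons of CA1 and CA3, and alpha 4 with delta from granule cells of the dentate gyrus.

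*Dek* itself followed the genotype labels. Its level in WT libraries had a lowest value of 44.2, a median of 48.8 and a highest of 51.9 TPM, and in cKO libraries 5.55, 6.99 and 9.25 TPM. The groups did not overlap (log2 fold change -2.74, SE 0.10, limma adjusted p = 1.17e-08, lower in 6 of 6 cKO libraries).

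The sex labels did not hold for 2 libraries. The Y-linked gene *Eif2s3y* was at 72.7 TPM in the library labelled female cKO replicate 3 and at 0.11 TPM in the library labelled male cKO replicate 1. In the other female-labelled libraries it was at 0.99 TPM or less, and in the other male-labelled ones at 69.0 TPM or more. *Ddx3y* (20.4 and 0 TPM), *Kdm5d* (3.67 and 0.44 TPM) and *Uty* (10.8 and 0.10 TPM) went against the labels in the same libraries. Labels were kept, and the main results that depend on sex are given with and without both libraries. An alternative used the sexes of the study's read summary, in which these 2 libraries are exchanged, the same way as by their Y-linked genes. By label, the cKO group of each sex therefore includes a library of conflicting sex.

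Another 3 libraries stood apart in their marker genes. Female cKO replicates 1 and 2 had summed levels of 7 cortex markers of 208 and 179 TPM, against 87.2 to 131 TPM in the other 10 libraries. All 7 were detected, and the most abundant, *Lamp5*, reached 72.8 and 55.9 TPM there and at most 40.6 TPM elsewhere. Of the 7, *Fezf2* (25.3 and 26.6 TPM) stayed within its WT range in both libraries, as *Rorb* did in female cKO replicate 1 (4.36 TPM). In male cKO replicate 3 the astrocyte gene *Gfap* was at 1267 TPM and the neuropeptide gene *Npy* at 529 TPM, with highest values of 437 and 141 TPM in the other 11 libraries. Of the other astrocyte markers *Aqp4* was also highest there (99.4 TPM, at most 57.3 TPM elsewhere), whereas *Aldoc* and *Gja1* were lowest of all 12 libraries, at 522 and 68.6 TPM. The 5 astrocyte markers other than *Gfap* summed to 954 TPM against 1076 to 1170 TPM in WT libraries. The 9 interneuron markers other than *Npy* summed to 889 TPM against 831 to 897 TPM in WT. In these libraries several subunits also took their extreme values, as described with each gene. In whole tissue, fewer cells of a type and less RNA per cell cannot be told apart.

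Subunit RNA gave no call, since 0 of 7 members passed the threshold (adjusted p below 0.05 and a change of more than 1.2-fold) in cKO against WT libraries of both sexes (limma, 6 against 6). Of the 18197 genes tested, 0.148% passed. At an unadjusted p under 0.05 there was 1 of 7, *Gabra5*, which was lower in cKO, against 6.64% of all genes. The log2 fold changes were negative for 7 of 7, beside 8041 of the 18197 genes tested. They were negative also after median ratio rescaling and quantile normalization of the libraries, but that of *Gabra3* was as small as -0.001. Their median was -0.06, beside 0.02 over all genes. Non-overlapping groups were seen for 0 of 7 subunits, whereas all 6 cKO values lay below all 6 WT values for 0.104% of genes tested and above them for 0.572%. P-values here measure the spread between these mice, including any difference in dissection.

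**Figure D1:**
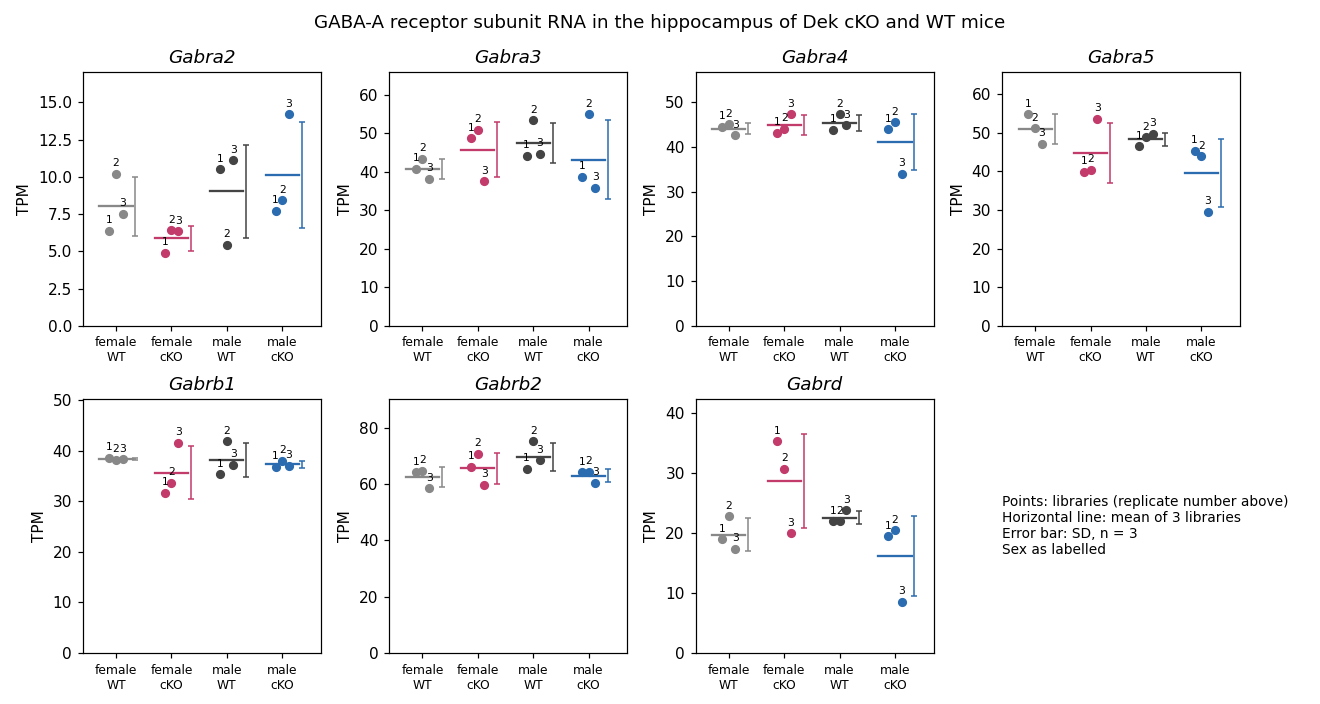
Level of each GABA-A receptor subunit gene (y axis, TPM, starting at 0) in the 12 libraries by labelled sex and genotype (x axis), with replicate numbers above the points, the mean as a horizontal line and the SD (n = 3) as an error bar. WT and cKO libraries of both sexes together overlap for every gene, 5 of 6 cKO values of *Gabra5* lie below the lowest WT value, and *Gabrd* spans 8.55 to 35.3 TPM among cKO libraries.

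Among the alpha subunits, *Gabra5* stood lowest in cKO relative to WT. Its levels in WT libraries had a lowest value of 46.5, a median of 49.2 and a highest of 54.8 TPM, and in cKO libraries 29.5, 42.1 and 53.6 TPM. Of the 6 cKO libraries, 5 lay below every WT library, and the exception was female cKO replicate 3, the highest at 53.6 TPM. Means were 49.7 ± 3.02 TPM in WT and 42.1 ± 7.89 TPM in cKO (SD, n = 6 each). The log2 fold change was -0.26 (SE 0.11, 95% confidence interval -0.49 to -0.02), with an unadjusted p of 0.0341 and a limma adjusted p of 0.704, so the difference did not pass over all genes. Within sexes the levels were 54.8, 51.1 and 47.1 TPM in female WT, 39.9, 40.4 and 53.6 TPM in female cKO, 46.5, 48.8 and 49.7 TPM in male WT, and 45.3, 43.9 and 29.5 TPM in male cKO. The lowest value of all was that of male cKO replicate 3, the library with high *Gfap*.

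The size of the *Gabra5* difference moved with the libraries that stood apart. It was -0.38 (SE 0.10, unadjusted p = 0.0024, limma adjusted p = 0.323) without both libraries of conflicting sex. Without male cKO replicate 3 it was -0.16, and without female cKO replicates 1 and 2 it was -0.24. Without all 3 of these it was -0.07 (unadjusted p = 0.397, limma adjusted p = 0.909). These 3 libraries hold the lowest cKO values of *Gabra5* (29.5, 39.9 and 40.4 TPM), so leaving them out had to shrink the difference. The cKO libraries then left include both of conflicting sex. The part of tissue composition in the *Gabra5* difference was not tested.

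*Gabra4*, the alpha subunit that pairs with delta in dentate granule cells, had nearly the same level in 11 of 12 libraries. Its levels were 42.6, 44.7 and 47.3 TPM (lowest, median and highest) in WT and 34.0, 44.0 and 47.3 TPM in cKO. The groups overlapped, and the low value of 34.0 TPM was again male cKO replicate 3. Its log2 fold change was -0.06 (SE 0.07, 95% confidence interval -0.21 to 0.09), and without that library it was 0.003.

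*Gabra3*, a subunit known from thalamic reticular and brainstem monoamine neurons and from cortex, ranged over 38.1, 43.7 and 53.3 TPM in WT and 35.8, 43.6 and 54.9 TPM in cKO (lowest, median and highest). WT and cKO libraries were interleaved, with the highest cKO value in male cKO replicate 2 and the lowest in male cKO replicate 3. The log2 fold change of -0.001 had a 95% confidence interval of -0.24 to 0.24, and its sign turned when any of 6 of the 12 libraries was omitted.

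*Gabra2*, whose product is enriched at the axon initial segment of pyramidal neurons, was the least abundant and among the most variable of the members. It was at 5.44, 8.85 and 11.1 TPM in WT (lowest, median and highest) and at 4.89, 7.05 and 14.2 TPM in cKO. Both extremes were cKO libraries, female cKO replicate 1 at the low end and male cKO replicate 3 at the high end. For *Gabra2* the log2 fold change was -0.12 (SE 0.24), and its 95% confidence interval ran from -0.65 to 0.40. It was 0.09 without female cKO replicates 1 and 2, -0.30 without male cKO replicate 3 and -0.14 without all 3.

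The beta subunits form the other side of the GABA binding site. *Gabrb1* was at 35.3, 38.2 and 41.8 TPM in WT and at 31.6, 36.9 and 41.5 TPM in cKO (lowest, median and highest). The low cKO values were female cKO replicates 1 and 2, at 31.6 and 33.6 TPM, and the other 4 cKO libraries lay within the WT range. Its log2 fold change was -0.07 (SE 0.06) and became 0.003 without those libraries. *Gabrb2* was the most abundant member, at 58.5, 65.0 and 75.1 TPM in WT and at 59.8, 64.2 and 70.6 TPM in cKO. All 6 cKO values lay inside the WT range, and the log2 fold change was -0.04 (SE 0.06, 95% confidence interval -0.17 to 0.09).

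*Gabrd*, which places receptors outside synapses and makes them sensitive to neurosteroids, had the widest range of the 7. Its levels were 17.4, 22.0 and 23.8 TPM in WT and 8.55, 20.2 and 35.3 TPM in cKO (lowest, median and highest). The highest over the lowest library was 4.12-fold. The 2 highest libraries were female cKO replicates 1 and 2 (35.3 and 30.7 TPM) and the lowest was male cKO replicate 3, while the other 3 cKO libraries lay within the WT range. Mean levels were close, 21.2 ± 2.44 TPM in WT and 22.4 ± 9.42 TPM in cKO (SD, n = 6 each). The log2 fold change of -0.04 had a 95% confidence interval of -0.60 to 0.53 and was 0.21 without male cKO replicate 3, -0.38 without female cKO replicates 1 and 2, and -0.08 without all 3.

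**Figure D2:**
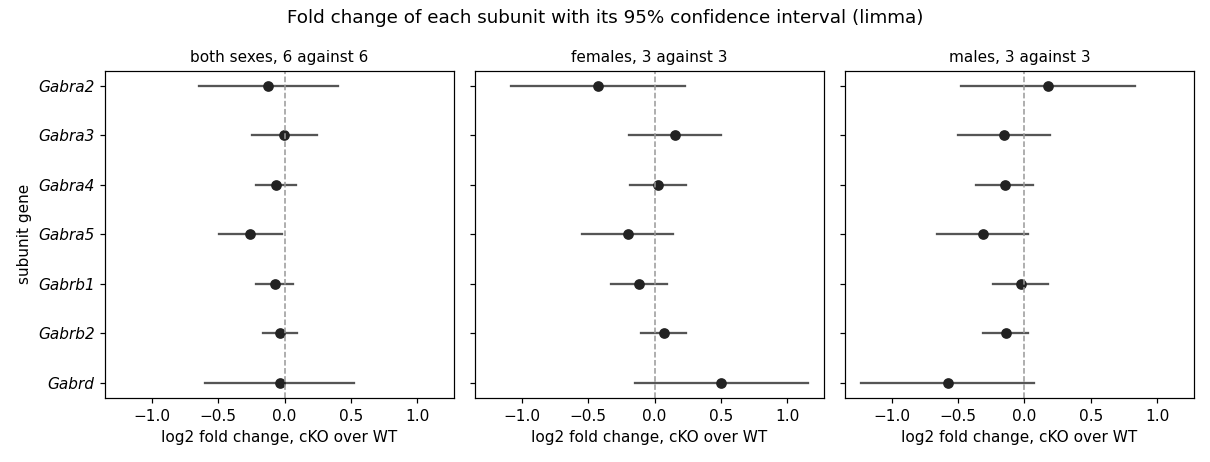
Log2 fold change of each subunit in cKO over WT (x axis) with its 95% confidence interval as a horizontal line, by gene (y axis), for both sexes and for libraries labelled female and male. The interval of *Gabra5* in both sexes ends at -0.02, and the other intervals include 0. *Gabrd* has its point at 0.50 in libraries labelled female and at -0.58 in those labelled male. The cKO group of each labelled sex includes a library of conflicting sex.

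Compared within each sex as labelled, 0 of 7 subunits passed the threshold in females and 0 of 7 in males, against 0.0165% and 0.0165% of genes tested (limma). At an unadjusted p under 0.05 there were 0 of 7 in each, against 5.79% of genes in females and 5.45% in males. The median log2 fold change of the 7 was 0.03 in females, with 4 positive, and -0.15 in males, with 1 positive (*Gabra2*). The 2 comparisons share no library, but their spread comes from the same fit. Without the libraries of conflicting sex, 3 members reached an unadjusted p under 0.05 in females, *Gabra5* at -0.34 (limma adjusted p = 0.539), *Gabrb1* at -0.23 and *Gabrd* at 0.74. In males there were then 2, *Gabra5* at -0.42 and *Gabrd* at -0.77. In these fits, where the female cKO libraries were replicates 1 and 2 with their high cortex markers, 8.56% of all genes reached that level in females and 8.86% in males.

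The log2 fold changes had opposite signs in females and males for 5 of 7 members (*Gabra2*, *Gabra3*, *Gabra4*, *Gabrb2* and *Gabrd*), and for 4, without *Gabra4*, when the libraries of conflicting sex were left out. With the sexes of the study's read summary the count was again 5, with *Gabrb1* in place of *Gabra4*. The share of all genes with opposite signs is not given here, so these counts do not set the members apart. By label *Gabrd* was the 1 of 7 for which all cKO libraries of one sex lay above their WT mean and all of the other below it, as for 5.03% of genes tested. Without the libraries of conflicting sex this held for *Gabrd* and *Gabrb2* and 17.8% of genes, and with the sexes of the study's read summary for *Gabrb2* and not *Gabrd*, and 6.45% of genes. *Gabrd* was at 19.0, 22.8 and 17.4 TPM in female WT and at 35.3, 30.7 and 20.0 TPM in female cKO. In male WT it was at 22.0, 22.0 and 23.8 TPM, and in male cKO at 19.5, 20.5 and 8.55 TPM. Female groups overlapped, since cKO replicate 3 lay below WT replicate 2, and the male groups did not. Male groups were also separate for *Gabra5* and *Gabrb2*, and of all genes tested 9.75% were separate in males. In females 0 of 7 members were, against 2191 of the 18197 genes. Without the libraries of conflicting sex 5 of 7 members were separate in females (all but *Gabra2* and *Gabra4*), against 5091 genes, and the same 3 members in males, against 3894 genes, with 2 cKO libraries in each sex. With the sexes of the read summary 2 of 7 were separate in females (*Gabra5* and *Gabrb1*), against 2382 genes. In males 2 of 7 were then separate (*Gabrb2* and *Gabrd*), against 2023 genes. For *Gabrd* the log2 fold change was 0.50 (SE 0.30, limma adjusted p = 0.898) in females and -0.58 (SE 0.30, adjusted p = 0.88) in males. The female effect minus the male effect was 1.08 (SE 0.42, 95% confidence interval 0.17 to 2.00), with an unadjusted p of 0.0248 and an adjusted p of 0.966 in limma.

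On this test of the difference between sexes, 0 of 7 subunits and 0% of all genes passed the adjusted threshold. *Gabrd* was the 1 of 7 with an unadjusted p under 0.05, against 4.23% of genes. Its difference was 1.51 (unadjusted p = 0.00507, limma adjusted p = 0.344) without the libraries of conflicting sex, where 8.80% of all genes had an unadjusted p under 0.05 and the female cKO libraries left were the 2 with high cortex markers. With the sexes of the read summary it was 1.06 (unadjusted p = 0.0302, limma adjusted p = 0.741). Without male cKO replicate 3 it was 0.68 (unadjusted p = 0.029, limma adjusted p = 0.999). Leaving out female cKO replicate 1, female cKO replicate 2 or female WT replicate 3 took the unadjusted p to 0.0622, 0.0517 and 0.0547 (limma adjusted p from 0.987 to 1). The *Gabrd* differences then were 0.915, 1.016 and 0.998. *Gabrb2* came next, with a difference of 0.21 (SE 0.11, unadjusted p = 0.076, limma adjusted p = 0.966).

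Male and female WT mice were compared as a control. At an unadjusted p under 0.05 there were 0 of 7 subunits in male WT against female WT (limma), beside 3.63% of genes tested, and 0 of 7 passed after adjustment. *Gabrb2* lay nearest, at 58.5 to 64.7 TPM in female WT and 65.4 to 75.1 TPM in male WT. Those ranges did not overlap, as for *Gabra3* and for 2191 of the 18197 genes tested, and the log2 difference for *Gabrb2* was 0.16 (SE 0.08, unadjusted p = 0.0645, limma adjusted p = 1). The female WT mice are also those with the C57 prefix.

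In WT hippocampus the order of the members by mean TPM was *Gabrb2* (66.0 ± 5.49), *Gabra5* (49.7 ± 3.02), *Gabra4* (44.7 ± 1.57), *Gabra3* (44.0 ± 5.14), *Gabrb1* (38.2 ± 2.13), *Gabrd* (21.2 ± 2.44) and *Gabra2* (8.51 ± 2.38; SD, n = 6). WT ranges were separate between *Gabrb2* and *Gabra5*, between *Gabrb1* and *Gabrd*, and between *Gabrd* and *Gabra2*. *Gabra5*, *Gabra4* and *Gabra3* each overlapped in range with the next in line, and *Gabra4* was above *Gabra3* in only 6 of 12 libraries. The step from *Gabrd* to *Gabra2* held in 11 of 12 libraries, the exception being male cKO replicate 3, where *Gabra2* was at 14.2 and *Gabrd* at 8.55 TPM.

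The 9 other family genes described here were all below *Gabra2*, the lowest member, in WT means. *Gabrg3* and *Gabrg1* were at 6.55 and 6.24 TPM and *Gabrr2* at 1.14 TPM. *Gabre*, *Gabrq*, *Gabrr1*, *Gabra6*, *Gabrr3* and *Gabrp* had WT means under 1 TPM. Of these 9 genes, 6 were above the filter on low values, and 0 of those 6 passed in cKO against WT of both sexes or had an unadjusted p under 0.05 (limma).

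Several members lie next to each other in the genome (GRCm38, GENCODE M21), as products of an ancient duplicated cluster. *Gabra2* (chr5:70957597-71095849, minus strand), *Gabra4* (chr5:71569749-71658308, minus) and *Gabrb1* (chr5:71658113-72149037, plus) share chromosome 5 with *Gabrg1*. *Gabra4* and *Gabrb1* start head to head and overlap by 196 bases. *Gabra5* (chr7:57407672-57510059, minus) lies next to *Gabrg3*. *Gabrb2* (chr11:42419757-42629028, plus) lies with *Gabra6*, *Gabra3* (chrX:72432681-72656848, minus) with *Gabre* and *Gabrq*, and *Gabrd* (chr4:155384980-155398112, minus) has no near neighbor of the family. The kit kept strand, but whether the quantification used it is not given in the sources used here. For overlapping genes, levels are therefore uncertain to the extent that reads of one gene could be assigned to the other.

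Physical neighbors did not all vary alike across the 12 libraries (Pearson's r of log2 TPM, a description over libraries of 4 groups). *Gabra4* and *Gabrb1* had r = 0.30, which was 0.73 without male cKO replicate 3 and 0.77 without all 3 libraries that stood apart. *Gabra2* and *Gabra4* had r = -0.58, -0.12 without male cKO replicate 3 and -0.46 over the 9 libraries without the 3 that stood apart. Between members on different chromosomes, *Gabra4* and *Gabra5* had r = 0.86 (Spearman's rho = 0.61), which was 0.49 without male cKO replicate 3 and 0.35 over the 9 libraries, and *Gabra3* and *Gabrb2* had r = 0.78 (rho = 0.82), and 0.71 over the 9 libraries. *Gabra4* and *Gabrd*, which share receptors in granule cells, had r = 0.71 over 12 libraries, -0.20 without male cKO replicate 3 and 0.40 over the 9 libraries.

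The members also differed in how much they varied at all. The SD of log2 TPM over the 12 libraries was 0.10 for *Gabrb2*, 0.11 for *Gabrb1* and 0.12 for *Gabra4*, below the median of 0.16 over the 14160 genes averaging 1 TPM or more. It was 0.21 for *Gabra3*, 0.24 for *Gabra5*, 0.45 for *Gabra2* and 0.49 for *Gabrd*. *Gabra2* lay at percentile 89.0 and *Gabrd* at percentile 90.5 of those genes.

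Markers of hippocampal cell types and of neighboring tissue give a second view of these differences. *Gabrd* followed the summed cortex markers, with r = 0.86 and rho = 0.87 over 12 libraries, 0.93 without male cKO replicate 3 and 0.60 over the 9 libraries. Both were highest in female cKO replicates 1 and 2 and lowest in male cKO replicate 3, where the cortex sum was 87.2 TPM. *Gabra5* had r = -0.05 with the cortex sum, -0.81 without male cKO replicate 3 and -0.44 over the 9 libraries. *Gabrb1* had r = -0.76, and -0.55 over the 9 libraries. With the 8 dentate granule cell markers *Gabrd* had r = -0.20, which was 0.35 over the 9 libraries. All 105 pairs of a member and a marker list were computed, and the part of dissection in these relations was not tested.

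*Gabra3* moved against the summed CA3 pyramidal cell markers more closely than against any other of the 15 sums. The summed level of the 7 CA3 markers, led by *Bok*, was 135, 134 and 162 TPM in female WT, 118, 115 and 157 TPM in female cKO, 117, 125 and 126 TPM in male WT, and 147, 113 and 175 TPM in male cKO. Libraries with the highest sums (male cKO replicate 3, female WT replicate 3 and female cKO replicate 3) had the lowest *Gabra3*, at 35.8, 38.1 and 37.5 TPM. Over 12 libraries r was -0.89 and rho -0.92, and r was -0.84 over the 9 libraries without those that stood apart. *Gabrb2* (r = -0.71) and *Gabrd* (r = -0.77) had the same sign. All 7 CA3 markers were above 1 TPM in every library. *Gabra3* had negative r over 12 libraries with 5 of them, from -0.91 for *Bok* to -0.55 for *Iyd*, and positive r with *Coch* (0.37) and *Prss35* (0.30), which add little to the sum.

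**Figure D3:**
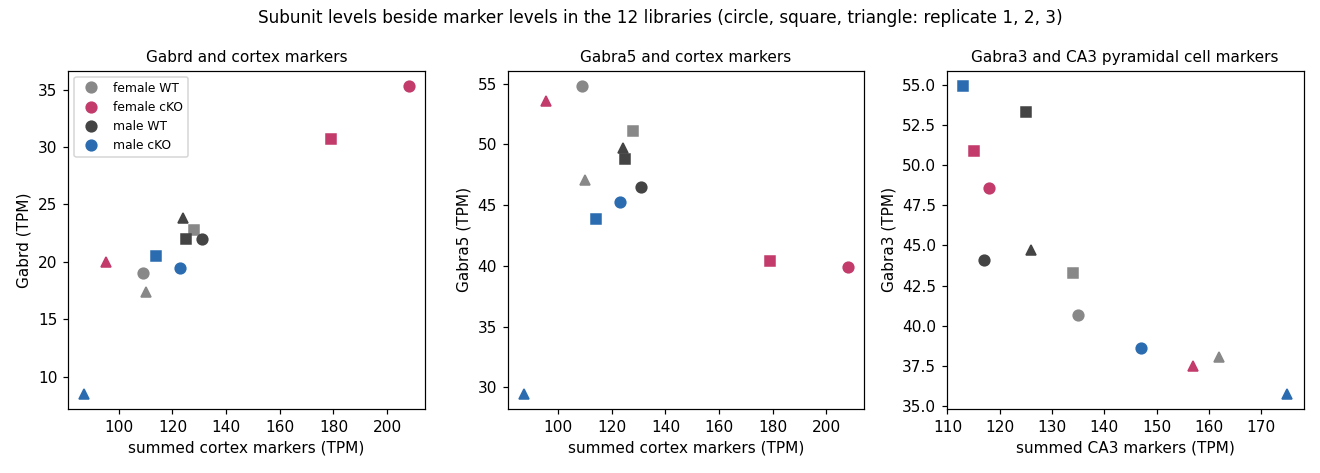
Level of *Gabrd* and *Gabra5* (y axes, TPM) beside the summed level of 7 cortex markers (x axes, TPM), and level of *Gabra3* beside that of 7 CA3 pyramidal cell markers, in the 12 libraries colored by labelled group, with axes that do not start at 0. *Gabrd* is highest where cortex markers are (208 and 179 TPM in female cKO replicates 1 and 2) and *Gabra3* is low where CA3 markers are high.

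Compared between genotypes, 0 of 15 marker sums passed after adjustment over the lists. The 10 interneuron markers were at 981 ± 20.9 TPM in WT and 1096 ± 162 TPM in cKO (SD, n = 6), a difference of 0.15 on the log2 scale (two-sided exact permutation p = 0.0195, 0.292 after adjustment over the 15 lists). Their most abundant gene, *Sst*, was at 406 to 447 TPM in WT and 427 to 453 TPM in cKO, and the sum was highest, at 1418 TPM, in male cKO replicate 3, where *Npy* supplied 529 TPM. Without *Npy* the sum was 862 ± 23.8 TPM in WT and 904 ± 26.6 TPM in cKO (log2 difference 0.07, exact permutation p = 0.0238 before adjustment, n = 6). The 7 CA1 markers, led by *Pex5l*, were at 471 ± 25.4 TPM in WT and 428 ± 36.3 TPM in cKO (log2 difference -0.14, exact permutation p = 0.0519, 0.389 after adjustment, n = 6). Cortex markers were at 121 ± 9.29 TPM in WT and 134 ± 48.3 TPM in cKO (exact permutation p = 0.708, n = 6). The 8 dentate markers, led by *C1ql2*, were at 216 ± 28.2 and 235 ± 33.6 TPM, CA3 markers at 133 ± 15.5 and 137 ± 26.0 TPM, and the 7 general neuron markers, led by *Snap25*, at 3959 ± 139 and 3911 ± 171 TPM. The 11 thalamus and habenula markers, led by *Calb2*, were at 114 ± 14.9 and 124 ± 21.5 TPM, and the 7 striatum markers, led by *Ppp1r1b*, at 75.4 ± 11.3 and 84.3 ± 15.0 TPM. Non-neuronal sums were 1375 and 1556 TPM for astrocytes (*Aldoc*; 1125 and 1110 TPM without *Gfap*), 4083 and 3502 TPM for oligodendrocytes (*Mbp*), 280 and 297 TPM for microglia, 147 and 142 TPM for endothelium (*Cldn5*), 650 and 623 TPM for blood (*Hbb-bs*) and 85.9 and 75.0 TPM for meningeal fibroblasts (*Dcn*). Choroid plexus markers, led by *Ttr*, spanned 48.5 to 4513 TPM, with low and high libraries in each genotype.

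For each member, the genes with the most similar pattern over the 12 libraries were taken from 14040 named genes averaging 1 TPM or more. *Gabrd* was followed most closely by *Ntsr1* (r = 0.97), a neurotensin receptor gene known from deep layer cortical neurons, by *Camk2g* (r = 0.97) and by *Kcnj4* (r = 0.96). *Gabra5* was followed by *Hapln1* (r = 0.96), *Lpl* (r = 0.96) and *Dcxr* (r = 0.94), and *Gabra4* by *Plk5* (r = 0.98), *Elmod1* (r = 0.96) and *Erich5* (r = 0.95). For *Gabra4* these fell to 0.82, 0.76 and 0.77 without male cKO replicate 3. *Gabra3* was nearest to *4930539E08Rik* (r = 0.95), *Nap1l2* (r = 0.92) and *Pgap1* (r = 0.92), and *Gabra2* to *Slc22a4* (r = 0.85), *Fbxl4* (r = 0.84) and *1810009A15Rik* (r = 0.84). *Gabrb1* was nearest to *Fgf13* (r = 0.96), *Gng7* (r = 0.94) and *Ahsa1* (r = 0.91), and *Gabrb2* to *Oxr1* (r = 0.90), *Galnt13* (r = 0.88) and *1700001L19Rik* (r = 0.88). These are the highest of many correlations, given as a description with n = 12.

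The rest of the GABA system gave 0 calls in cKO against WT of both sexes (limma), and its counts at an unadjusted p under 0.05 stand beside 6.64% of all genes. Of 8 genes for making, packaging and clearing GABA, 0 had an unadjusted p under 0.05, and *Gad1*, which encodes a GABA-synthesizing enzyme, was at 197 ± 12.3 TPM in WT and 212 ± 14.8 TPM in cKO. Of 17 genes for receptor assembly, trafficking and anchoring there was 1, *Clptm1*, which holds subunits back in the endoplasmic reticulum. It was at 27.3 to 32.7 TPM in WT and 30.8 to 33.7 TPM in cKO (log2 fold change 0.13, SE 0.05, unadjusted p = 0.0244, limma adjusted p = 0.664). The most abundant of that list, *Gabarapl1* and *Gabarap*, were at 558 ± 19.6 and 180 ± 10.2 TPM in WT and 557 ± 29.6 and 188 ± 7.29 TPM in cKO.

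Of 3 chloride transport genes and 3 genes for endogenous modulators there were 0 at an unadjusted p under 0.05. *Slc12a5*, the chloride exporter that makes GABA inhibitory, was at 187 ± 11.4 TPM in WT and 179 ± 36.6 TPM in cKO, and *Clcn2* at 62.9 ± 6.81 and 62.9 ± 6.46 TPM. *Dbi*, which encodes a peptide ligand of the benzodiazepine site, was at 456 ± 37.5 and 444 ± 58.4 TPM, and *Srd5a1*, a neurosteroid-forming reductase, at 7.33 ± 0.54 and 7.45 ± 0.57 TPM. Of the 4 measured GABA-B receptor genes, *Gabbr1* had an unadjusted p under 0.05 (log2 fold change 0.12, SE 0.05, unadjusted p = 0.0473 and limma adjusted p = 0.746), at 507 ± 21.4 TPM in WT and 551 ± 43.1 TPM in cKO. Its partner *Gabbr2* was at 100 ± 2.83 and 98.9 ± 5.23 TPM.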

How the data were processed

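The deposited values are TPM, which the authors made from poly-A selected, stranded, paired-end libraries. The study's methods name STAR and Salmon on GRCm38, and the submitters' processing notes name mm10 and kallisto, so which of them made the table is unsure. Of 26409 genes, 25245 had a GENCODE M21 symbol. TPM holds no counts, so DESeq2, which the study used, was not run. The 18197 genes averaging 0.1 TPM or more were tested on log2(TPM + 0.1), a scale that understates changes of low genes, with limma 3.58.1 (R 4.3.3, trended prior variance, two-sided, Benjamini-Hochberg adjustment over all genes). Genes passed below an adjusted p of 0.05 if they changed by more than 1.2-fold. Both sexes were compared as 6 against 6 libraries, and sexes, the difference between them and WT mice in 1 fit of 4 groups. Summed marker levels were compared by an exact permutation test over all 924 assignments, whose smallest p is 0.00216. Python 3.11.15, pandas 2.3.3, numpy 2.4.6, scipy 1.17.1 and matplotlib 3.10.9 were used, and steps were tested on simulated data.

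Genes named are the 7 subunits, *Dek*, 4 Y-linked genes, 9 other family genes, genes of other GABA lists with an unadjusted p under 0.05 or among the 2 most abundant of their list, cell type markers, and the 3 genes most correlated with each subunit. *Gfap* and *Npy*, both listed markers, were singled out after their values were seen. The members and lists were chosen with earlier results of these data known. Alternatives changed the pseudocount, filter, scaling, prior variance, covariates, sex labels and libraries. Leaving out libraries that stood apart, or *Gfap* and *Npy* from their lists, was chosen after seeing the data. Some listed genes are not reported here. *Kctd12*, a GABA-B receptor gene, was not among the listed genes.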

Additional observations from a re-analysis of the deposited data

Results flagged for a closer look

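A library far from the others of its genotype was looked for in 50 sets of 6 libraries, for subunit genes averaging 1 TPM or more and for marker sums. Chance was assumed to give about 1 such finding in 20 sets. *Gabra4* was at 34.0 TPM in male cKO replicate 3, where the other 5 cKO libraries were at 43.1 to 47.3 TPM. In the same library the interneuron marker sum was 1418 TPM and the astrocyte marker sum 2222 TPM, of which *Npy* was 529 TPM and *Gfap* 1267 TPM. The other markers summed to 889 TPM for interneurons, within the WT range, and to 954 TPM for astrocytes, below it. Marker sums stood apart at 168 TPM for meningeal fibroblasts in male cKO replicate 2, 2281 TPM for oligodendrocytes in male WT replicate 2 and 335 TPM for microglia in the library labelled female cKO replicate 3.

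For some results all 3 cKO libraries of one labelled sex lay above the mean of their WT group and all 3 of the other sex below it. The female effect minus the male effect was 1.08 for *Gabrd* (log2 scale, unadjusted p = 0.0248, limma adjusted p = 0.966) and 0.26 for *Gabrg3*, and neither passed after adjustment. It was 0.16 for the general neuron markers and -0.61 for the blood markers, where the difference was not tested. Without the libraries of conflicting sex these were 1.51, 0.27, 0.18 and -0.71 in the same order, with every library on its side. With the sexes of the study's read summary they were 1.06, 0.15, 0.11 and -0.81, and only the blood markers kept every library on its side.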

How the results depend on the processing

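Of 1514 recomputed values for 73 results, 1388 were labelled the same. A gene or marker sum was judged by direction and threshold, a count by a ratio of at most 1.5, and a median by a shift within the spread between libraries. That spread was 0.124 on the log2 scale, wider than the median of -0.063 in both sexes or 0.025 in females. These medians could therefore change sign and still be labelled the same. The count of subunits passing was 0 in every comparison under every alternative, and *Dek* passed in every fit of both sexes. Causes of the changes below were not tested. No subunit changed its call, so the values below give directions, ranges and counts at an unadjusted p under 0.05. The count of all genes passing in both sexes was 27 in the main fit and 36 with a prior variance without trend. It was 3 with a replicate block, 8 with the CMV libraries alone and 16 without the libraries of conflicting sex. Without female cKO replicates 1 and 2, alone or with male cKO replicate 3, it was 6. With 1 library left out it ranged from 13 to 27.

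In both sexes the count of subunits at an unadjusted p under 0.05 was 0 instead of 1 with a prior variance without trend, with the CMV libraries alone, and without female cKO replicates 1 and 2, alone or with male cKO replicate 3. The log2 fold change of *Gabra3* was 0.10 without the libraries of conflicting sex. Without female cKO replicates 1 and 2 that of *Gabra2* was 0.088 and that of *Gabrb1* 0.003, and without male cKO replicate 3 as well *Gabra4* was at 0.028 and *Gabrb1* at 0.02.

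In females the median log2 fold change of the 7, 0.025 in the main fit, turned to -0.015 without the libraries of conflicting sex and -0.012 with the sexes shown in the study's read summary, and ranged from -0.015 to 0.053 with 1 library left out, shifts labelled the same. There the count was 3 and *Gabra4* -0.015 without the libraries of conflicting sex, and 1 and -0.012 with the sexes of the read summary. In males it was 2 and 1 under these settings, and 1 with either rescaling of the libraries, and *Gabrb1* was 0.028 with the sexes of the read summary. For the difference between sexes it was 2 under both sex settings, with *Gabra5* at -0.05 in the second. For male against female WT it was 1 with either rescaling and with the sexes of the read summary, and *Gabrb1* was 0.004 with quantile normalization. Shares of all genes at an unadjusted p under 0.05 with either rescaling or the read summary sexes are not given here. The counts under those settings therefore do not set the members apart.

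Leaving out 1 library at a time, the count of subunits at an unadjusted p under 0.05 ranged from 0 to 1 in both sexes. It ranged from 0 to 2 in females, 0 to 4 in males, 0 to 2 for the difference between sexes and 0 to 1 between WT sexes. The shares of all genes at that level in these fits are not given here, so these counts do not set the members apart. In both sexes the log2 fold change ranged from -0.30 to 0.000 for *Gabra2*, -0.067 to 0.056 for *Gabra3*, -0.092 to 0.003 for *Gabra4*, -0.071 to 0.001 for *Gabrb2* and -0.19 to 0.21 for *Gabrd*. It ranged from -0.015 to 0.053 for *Gabra4* in females, from -0.15 to 0.36 for *Gabra2* and -0.082 to 0.04 for *Gabrb1* in males, and from -0.058 to 0.45 for *Gabra2* and -0.081 to 0.04 for *Gabrb1* between WT sexes. For the difference between sexes *Gabra5* ranged from -0.088 to 0.22 and the median of the 7 from 0.045 to 0.23. Log2 differences of marker sums ranged from -0.16 to -0.11 for CA1, -0.041 to 0.091 for CA3, 0.072 to 0.18 for interneurons, -0.061 to 0.19 for cortex, -0.48 to 0.87 for choroid plexus, -0.67 to -0.17 for meningeal fibroblasts, -0.37 to -0.12 for oligodendrocytes, 0.049 to 0.11 for microglia and -0.14 to 0.10 for blood. With *Gfap* left out of the astrocyte list its difference was -0.023, and with *Npy* left out of the interneuron list it was 0.068.

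Same-numbered libraries did not vary together (0 of 18 pairs correlated over 0.1, and 3 of 12 libraries matched best with their own number), so the numbers do not pair the mice. With a replicate block the count of subunits at an unadjusted p under 0.05 was 1 in both sexes, 2 in females and 0 in males. The shares of all genes at that level with this block are not given here. A block of the replicate number alone, chosen after seeing the data, left *Gabra5* at -0.26.

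Limits are the small groups, the sex labels of 2 libraries, the female WT prefix, counts that TPM does not hold and marker levels that differ between libraries.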
